A study of Mus musculus with 6 samples.

Results

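The amino acid transporter families Slc1, Slc3, Slc6, Slc7, Slc36, Slc38 and Slc43 were examined in mouse bone marrow on 6 Affymetrix arrays. Members were the probe sets with a single gene symbol in the platform annotation that began with Slc1a, Slc3a, Slc6a, Slc7a, Slc36a, Slc38a or Slc43a, and Slc7a2 was left out. They numbered 121 of 45037 probe sets and stood for 62 of 18193 genes. Of these, 59 genes (117 probe sets) were named as transporters. The other 3 symbols, Slc36a1os, Slc6a19os and Slc7a6os, name genes on the opposite strand of a transporter and not carriers themselves. The cells were myeloid marrow cells of mice labelled ASXL1-MT-transplanted, which had a disease resembling myelodysplastic syndrome, and of mice labelled mock-transplanted, the normal controls, with 3 arrays in each group. The series text gives magnetic removal of cells carrying CD3e, B220 or TER-119 for both groups, and the source label repeats it for mock alone. ASXL1 is a chromatin regulator that is recurrently truncated in myeloid neoplasms. The labels name neither the mutation, the vector, the strain, the age nor what the mock transplant carried. Nothing in them ties the 3 arrays of a group to different animals, so each p-value reflects array-to-array spread alone, and that spread may be technical.

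Amino acid carriers supply cells with building blocks for protein, with glutamine and serine for nucleotide synthesis, and with cystine for glutathione. Slc7 light chains reach the plasma membrane only when joined to an Slc3 heavy chain, whereas the cationic Slc7 carriers, Slc1, Slc6 and Slc38 work without one. Several Slc36 and Slc38 members sit in the lysosome membrane, where amino acids are sensed by the growth kinase complex mTORC1. Shortage of amino acids, and other stresses, raise translation of the transcription factor Atf4, which binds C/EBP-ATF response elements in genes for transporters and amino acid synthesis. Slc6 also holds carriers of neurotransmitters, taurine and creatine, so the family is wider than its label.

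The deposited numbers are log values, read here as log2, and every probe set has a median of 0 across the arrays. Changes are given as ASXL1-MT minus mock (difference of group means), and the threshold is an adjusted p of 0.05 in limma's test over all probe sets. Centring removed the absolute levels, so no value shows how strongly a carrier was expressed, and folds hold only if the log base is 2. Brightness was partly recovered from rounding: 33 of the 121 member probe sets had their 3 highest arrays on the rounding step of log values of 8 or more, and are called bright. Bright members had a median SD within groups of 0.24 and the other 88 a median of 0.78, so dim members carry far more error.

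Cell type markers also differed between the groups, and their part in the transporter results was not tested. Among all genes 11.4% passed, so 1 call among 5 genes carries little weight. Of 12 mature neutrophil genes 6 were lower and 0 higher. Their array means ran from -0.68 to -0.43 in ASXL1-MT and from 0.45 to 0.61 in mock. Lower too were 3 of 5 megakaryocyte genes and 1 of 5 granulocyte progenitor genes, and higher were 6 of 7 dendritic cell genes, 4 of 7 stem and progenitor genes (1 was lower), and 3 of 5 stromal genes (1 was lower). All 5 granulocyte progenitor genes and all 7 monocyte and macrophage genes had a bright probe set, and of the latter 1 was higher and 1 lower. The depleted lineages were dimmer, with a bright probe set in 1 of 6 T cell, 3 of 5 B cell and 2 of 5 erythroid genes. Among these, the T cell genes Cd8a and Cd8b1, the B cell gene Cd79b and the erythroid gene Alas2 were higher, and 0 were lower. The other T cell genes did not pass, with Cd3d at -2.82, Cd3g at -1.38, Cd4 at -0.04 and Cd3e at 0.78. Median changes were -0.65 over the B cell genes and 0.65 over the erythroid genes. In such bulk samples, fewer cells of a type and less RNA per cell cannot be told apart.

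Across the families, 9 member probe sets were higher and 6 lower in ASXL1-MT, 15 in all. The higher ones belonged to the glutamine and neutral amino acid carriers Slc1a5, Slc1a4, Slc38a1 and Slc38a3, the acidic amino acid carriers Slc1a3 and Slc1a7, and the lysosomal proteins Slc36a1 and Slc38a9. The lower ones belonged to the cystine carrier Slc7a11, the taurine carrier Slc6a6, the GABA carrier Slc6a13 and another probe set of Slc38a3. The share called was 12.4% of members, against 8.1% of all 45037 probe sets (4.73% higher and 3.37% lower). Among bright probe sets the shares were 18.2% of members (6 of 33) and 13.8% of all, and among the others 10.2% of members (9 of 88) and 4.56% of all. With the bright probe sets fitted alone, 12 of the 33 bright members passed (36.4%), against 39% of all bright probe sets. Brightness is set by the 3 highest arrays, which for groups that do not overlap are those of the higher group, so these shares support no call. At an unadjusted p under 0.05, 23 members were higher and 10 lower, where 26.3% of all probe sets passed. The groups did not overlap in 41 members (33.9%), against 35.4% of all probe sets. With probe sets averaged by gene, 5 member genes were higher and 2 lower, or 11.3%, against 11.4% of all genes. The families as a whole were called at gene level at a share near the background.

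**Figure D1:**
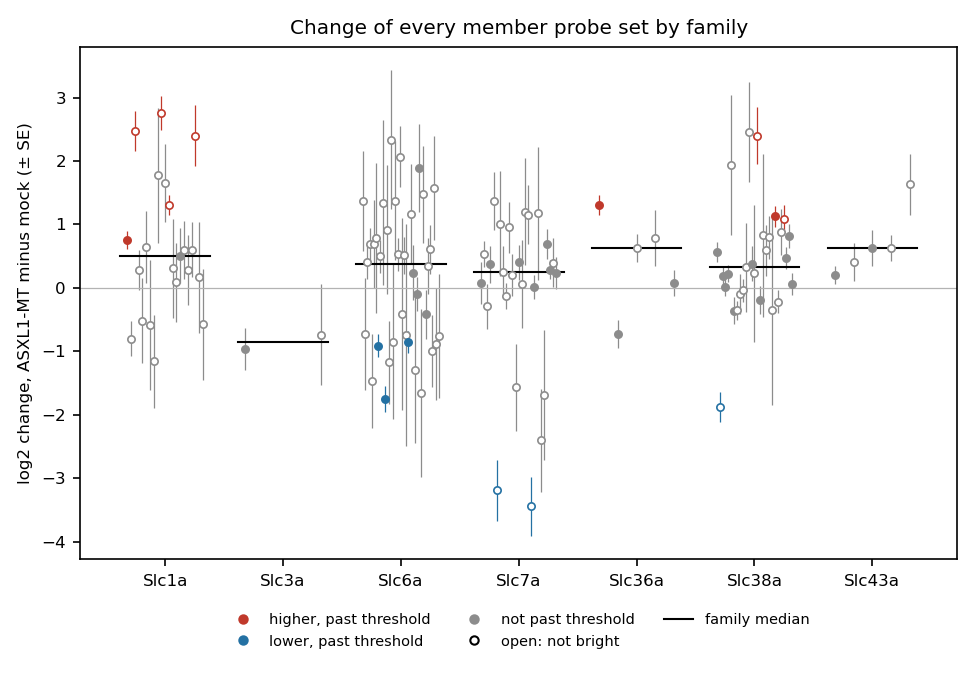
Change of each of the 121 member probe sets, as ASXL1-MT minus mock on the log2 scale (vertical axis, with SE), by family (horizontal axis); filled points are bright, red and blue points passed the threshold as higher and lower, grey ones did not, and black lines are family medians. Called points lie above 0 in Slc1a and Slc36a, below 0 in Slc6a and Slc7a, and on both sides in Slc38a, and most open points have long error bars.

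Family medians over genes are descriptions and carry no test. The median change was 0.31 over the 62 genes, or 0.20 above the median of 0.11 over all genes. Slc1a had a median of 0.61 over 7 genes, Slc36a 0.63 over 5, Slc43a 0.63 over 3, Slc7a 0.32 over 15, Slc38a 0.26 over 9 and Slc6a -0.03 over 21. Both Slc3a genes were negative, with a median of -0.85. Cyclic loess brought the median of all genes from 0.11 to 0.0065, and changes are best read relative to that shift. After it the members called were 6 higher and 6 lower, as with equal array medians, and after quantile normalization 7 higher and 6 lower. All 15 called members kept their sign under these 3 scalings.

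**Figure D2:**
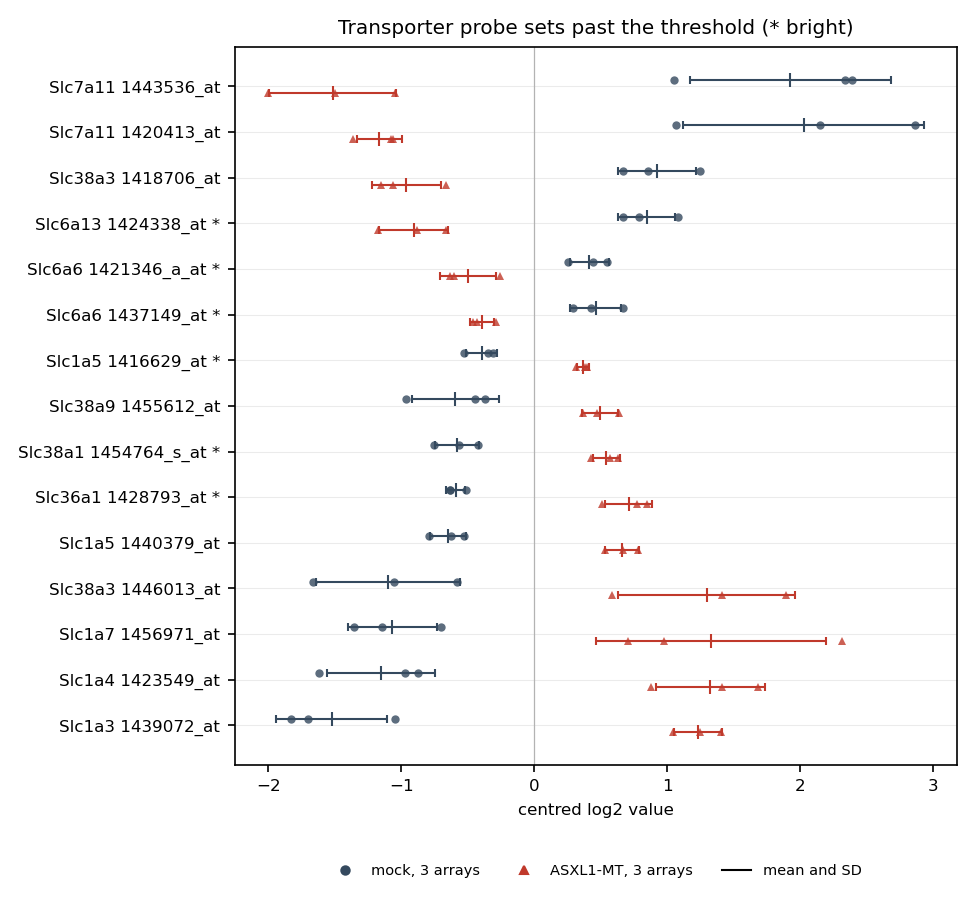
Centred log2 values (horizontal axis) of the 15 member probe sets past the threshold, with the 3 mock arrays as circles, the 3 ASXL1-MT arrays as triangles, and bars for the mean and SD of each group. In all 15 the groups do not overlap, and both Slc7a11 probe sets show the widest gap and a wide mock spread.

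Calls were few with 5 arrays. Without ASXL1-MT replicate 1 the members called were 2 higher and 3 lower, without replicate 2 or replicate 3 none passed, without mock replicate 1 there was 1 higher, without mock replicate 2 none, and without mock replicate 3 there were 1 higher and 2 lower. The counts over all probe sets fell alike, from 3646 to 1142, 112, 66, 674, 159 and 332 in the same order. Of the 15 called members, 4, 0, 0, 1, 0 and 2 kept their call. All 15 kept their sign in each of these 6 fits.

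**Figure D3:**
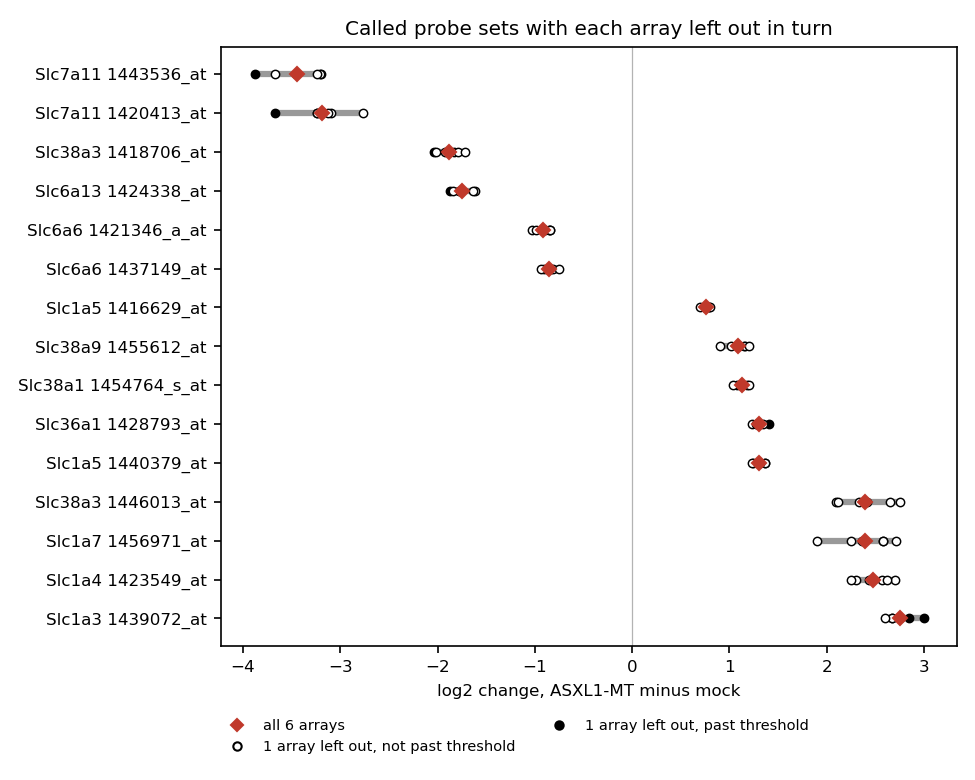
Log2 change, ASXL1-MT minus mock (horizontal axis), of the 15 called member probe sets with all 6 arrays (diamonds) and with each array left out in turn (circles, filled where the threshold was passed; bars span their range). No range reaches 0, and few circles are filled.

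Slc7a11, the light chain that takes up cystine in exchange for glutamate, showed the largest change of the members. Probe set 1443536_at read -2.01, -1.50 and -1.05 on the ASXL1-MT arrays (replicates 1 to 3, the order used throughout), whereas the mock arrays read 2.39, 2.34 and 1.05. Probe set 1420413_at read -1.06, -1.08 and -1.36 against 2.86, 2.15 and 1.06. All ASXL1-MT arrays lay below all mock arrays in both, and mock replicate 3 was the lowest control. The changes were -3.44 (SE 0.47, adjusted p = 0.0234 by limma) and -3.19 (SE 0.48, adjusted p = 0.0276), or 10.9-fold and 9.13-fold lower. Neither probe set was bright. The gene's mean was lower by 9.96-fold (log2 change -3.32, 95% interval -4.41 to -2.23, adjusted p = 0.0155). Both probe sets passed without mock replicate 3, at -3.88 and -3.67, and in no other fit with an array left out. The change ran from -3.88 to -3.20 in 1443536_at and from -3.67 to -2.77 in 1420413_at over those fits.

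Slc3a2, the heavy chain CD98 that carries Slc7a11 and other light chains to the surface, did not pass. Its bright probe set 1425364_a_at read -0.12, -1.09 and -1.21 against 0.12, 0.13 and 0.20. The groups did not overlap, but ASXL1-MT replicate 1 lay close to the controls. The change was -0.96 (SE 0.33, 95% interval -1.79 to -0.14, adjusted p = 0.142 by limma). Without ASXL1-MT replicate 1 it was -1.30 and passed (adjusted p = 0.0459). Slc3a1, the heavy chain of kidney and gut cystine transport, was -0.74 with an SE of 0.80.

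The bases before the start site of Slc7a11 are shown because they hold paired C/EBP-ATF elements, and those of Chac1 and Asns, other genes of the amino acid response, because they hold a single one and their values are set against it below. Slc36a1, a carrier that rose, is set beside them. Each is the 250 bases before a RefSeq start in GRCm38.p6, on the gene's strand, which gave a start for 46 of the 62 member genes. Capitals mark the C/EBP-ATF core TGATGNAA, the E-box CACGTG and the antioxidant response core TGACNNNGC, each searched on both strands, and no printed match overlaps another. Slc7a11 lies at chr3:50443614-50443863 (minus strand), Chac1 at chr2:119350992-119351241 (plus), Asns at chr6:7693210-7693459 (minus) and Slc36a1 at chr11:55204090-55204339 (plus).
Slc7a11: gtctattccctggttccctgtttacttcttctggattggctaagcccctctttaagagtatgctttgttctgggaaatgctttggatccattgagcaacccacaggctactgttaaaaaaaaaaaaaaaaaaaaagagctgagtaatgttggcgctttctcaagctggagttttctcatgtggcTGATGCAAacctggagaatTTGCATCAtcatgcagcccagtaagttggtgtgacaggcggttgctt
Chac1: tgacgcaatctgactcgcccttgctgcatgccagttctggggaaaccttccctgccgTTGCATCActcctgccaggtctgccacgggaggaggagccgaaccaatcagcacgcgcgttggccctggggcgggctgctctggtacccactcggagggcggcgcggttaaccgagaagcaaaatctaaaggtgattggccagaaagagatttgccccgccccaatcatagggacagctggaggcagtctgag
Asns: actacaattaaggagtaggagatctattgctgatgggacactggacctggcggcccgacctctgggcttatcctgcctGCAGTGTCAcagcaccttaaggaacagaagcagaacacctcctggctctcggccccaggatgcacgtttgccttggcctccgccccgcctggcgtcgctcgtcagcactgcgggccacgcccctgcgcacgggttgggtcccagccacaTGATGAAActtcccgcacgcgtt
Slc36a1: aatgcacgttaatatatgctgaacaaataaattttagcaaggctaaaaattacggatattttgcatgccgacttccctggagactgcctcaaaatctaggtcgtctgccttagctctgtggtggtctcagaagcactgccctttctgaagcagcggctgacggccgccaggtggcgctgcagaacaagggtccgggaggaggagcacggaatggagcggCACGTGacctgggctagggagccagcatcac
The Slc7a11 window held the C/EBP-ATF core in both orientations, at 59 to 66 and 40 to 47 bases before the start. At least 1 such core was found in 3.91% of 27025 genes with such windows and 2 or more in 13 of them (0.0481%). Among the members, 3 of 46 genes (6.52%) held at least 1, the other two being Slc7a7 and Slc6a21, neither of which passed. The E-box was found in 19.6% of member genes (9 of 46) and 6.86% of all. Slc36a1, at 26 to 31 bases before the start, and Slc1a7 held it. So did Slc1a6, Slc38a5, Slc38a7, Slc43a1, Slc6a16, Slc6a3 and Slc7a14, none of which passed. Slc1a5, Slc38a1, Slc38a3, Slc6a6 and Slc6a8, which had calls, had no window. The antioxidant core was found in 19.6% of member genes and 11.5% of all. Slc6a13, which was lower, held it, and Slc7a11 did not. It was also found in Slc36a1os, Slc38a2, Slc43a1, Slc6a11, Slc6a16, Slc6a9, Slc7a1 and Slc7a6, none of which passed. These are matches of letters, and binding was not measured.

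The other Slc7 members did not pass. Slc7a5, the large neutral amino acid carrier LAT1, had a change of 0.37 (95% interval -0.37 to 1.11) on a bright probe set, with ASXL1-MT values of 0.80, 0.039 and -0.039 and mock values of -0.38, 0.11 and -0.041. Only ASXL1-MT replicate 1 stood above the controls. Slc7a1, the main arginine and lysine carrier CAT1, had changes of 0.69, 0.29 and 0.25 in its 3 probe sets. The largest, 1454991_at, read 0.12, 0.39 and 0.30 against -0.82, -0.33 and -0.12, without overlap (adjusted p = 0.136 by limma). Slc7a6 and Slc7a7, which exchange cationic for neutral amino acids, ranged from 0.012 to 0.53 over 4 probe sets. Slc7a12 had a change of 1.37 and Slc7a13 changes of -2.40 and -1.57, all in dim probe sets with SEs of 0.46 to 0.81. Of 10 light chain genes 1 was lower and 0 higher, and of 4 cationic carriers 0 passed, where 11.4% of all genes passed.

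The carriers of small neutral amino acids ASCT1 and ASCT2 had 3 of 5 probe sets higher and 0 lower, where 4.73% of all probe sets were higher. These probe sets measure only 2 genes, of which 1 passed as a mean, where 11.4% of all genes passed. Slc1a5 (ASCT2), a main entry route for glutamine in dividing cells, rose in both probe sets. Its bright probe set 1416629_at read 0.38, 0.31 and 0.40 against -0.53, -0.35 and -0.31 in the controls, and 1440379_at read 0.78, 0.66 and 0.53 against -0.79, -0.53 and -0.63. The arrays of each group lay close together and the groups were clearly apart. The changes were 0.76 (SE 0.14, adjusted p = 0.0411 by limma) and 1.31 (SE 0.16, adjusted p = 0.0200), or 1.69-fold and 2.47-fold higher. The first lost its call under each scaling (adjusted p from 0.0537 to 0.0597), with changes from 0.65 to 0.68, while the gene's mean of 1.03 passed (adjusted p = 0.0158) and also passed under all 3. Slc1a4 (ASCT1), which carries alanine, serine and cysteine, rose in 1423549_at, at 1.41, 1.69 and 0.88 against -1.62, -0.97 and -0.88. That change was 2.48 (SE 0.32, adjusted p = 0.0213). Its other probe sets, at 0.60 and 0.28, did not pass, and nor did the gene's mean of 1.12 (adjusted p = 0.055).

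Slc38a1 (SNAT1), a sodium-coupled glutamine carrier, rose in its bright probe set 1454764_s_at. Its ASXL1-MT arrays read 0.43, 0.63 and 0.57 and its mock arrays -0.76, -0.43 and -0.57, so the groups did not overlap. The change was 1.13 (SE 0.16, adjusted p = 0.0256 by limma), 2.18-fold. Its other bright probe set, 1415903_at, went the same way at 0.56 (adjusted p = 0.0956), and the gene's mean passed (0.84, adjusted p = 0.0272). Without _x_at and _s_at sets only 1415903_at remained, and the gene's call was lost (0.56, adjusted p = 0.0767). Slc38a2 (SNAT2), the family member best known for induction by amino acid shortage, gave 0.19, -0.36 and -0.35 in 3 probe sets, none of which passed. The 95% interval of the bright probe set 1426722_at was -0.18 to 0.57. Slc38a4, a liver and placenta carrier, had changes of 1.94 and 0.83 with SEs of 1.10 and 1.29.

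Slc38a3 (SNAT3), which moves glutamine in and out of liver and kidney cells, passed in opposite directions. Probe set 1418706_at read -0.67, -1.07 and -1.15 against 1.25, 0.67 and 0.85, a change of -1.88 (SE 0.24, adjusted p = 0.0210 by limma). Probe set 1446013_at read 1.41, 0.58 and 1.89 against -1.05, -1.67 and -0.58, a change of 2.40 (SE 0.45, adjusted p = 0.0405). Both were dim, each had groups that did not overlap, and the gene's mean of 0.26 stood for neither. It was the only member gene of 31 with several probe sets whose probe sets passed in both directions. In 14 of those 31 genes the probe sets differed in sign. Slc38a5, the other carrier of this type, varied from -1.90 to 3.42 within ASXL1-MT and gave no usable estimate (SE 1.50).

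Of the lysosomal carriers Slc36a1 rose, and Slc38a9 rose in 1 probe set. Slc36a1 (PAT1), which exports small amino acids from lysosomes with protons, read 0.51, 0.85 and 0.77 against -0.51, -0.63 and -0.63 in its only probe set, 1428793_at. This bright probe set changed by 1.30 (SE 0.16, adjusted p = 0.0205 by limma), 2.47-fold, and the mock arrays were nearly equal. It passed without ASXL1-MT replicate 1 and in no other fit of single probe sets with an array left out. Slc38a9, the lysosomal arginine sensor of mTORC1, was measured by 7 probe sets, of which 6 were positive and 1 passed. That was 1455612_at, with 0.47, 0.37 and 0.63 against -0.45, -0.37 and -0.97, a change of 1.09 (SE 0.22, adjusted p = 0.0470), which was lost under each scaling (adjusted p from 0.0540 to 0.0613) and without _x_at and _s_at sets (adjusted p = 0.0519). The bright probe set 1456338_at went the same way at 0.82 (adjusted p = 0.0604), and the mean of all 7 was 0.62 (adjusted p = 0.0933). Slc36a2, a carrier of glycine and proline, read -0.17, -0.43 and -0.14 against 0.73, 0.57 and 0.14, a change of -0.73 (adjusted p = 0.107). Slc36a4 had a change of 0.078 (95% interval -0.45 to 0.61) and Slc36a3 one of 0.63 (adjusted p = 0.155).

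The acidic amino acid carriers of Slc1, which clear glutamate at synapses, were dim in all but 1 of 16 probe sets. Slc1a3 (EAAT1) had 1 of 6 probe sets past the threshold, 1439072_at, with 1.05, 1.40 and 1.24 against -1.05, -1.70 and -1.83. This was the largest rise of the members, 2.76 (SE 0.26, adjusted p = 0.0151 by limma), and it passed without ASXL1-MT replicate 1 and without mock replicate 1. The other 5 probe sets ranged from -0.58 to 0.65, with SEs of 0.55 to 1.03, and the gene's mean of 0.58 did not pass (adjusted p = 0.224). Slc1a7 (EAAT5), known from the retina, read 0.97, 0.70 and 2.32 against -0.70, -1.14 and -1.36, a change of 2.40 (SE 0.48, adjusted p = 0.0467). ASXL1-MT replicate 3 was far above the other two, and without it the change was 1.90. That call was lost with loess and with equal array medians (adjusted p = 0.0512 for both) and without _x_at and _s_at sets (adjusted p = 0.0502).

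In Slc6, 3 of 36 probe sets passed, or 8.33%, near the 8.1% of all probe sets. These 3, of Slc6a6 and Slc6a13, were lower, while 20 of the 36 changes were positive. Slc6a6, the taurine transporter, is of interest in marrow because neutrophils hold much taurine. Its bright probe sets 1421346_a_at and 1437149_at read -0.26, -0.64 and -0.61 against 0.44, 0.55 and 0.26, and -0.29, -0.43 and -0.46 against 0.67, 0.42 and 0.29. Groups did not overlap in either. The changes were -0.91 (SE 0.18, adjusted p = 0.0462 by limma) and -0.85 (SE 0.17, adjusted p = 0.0440), 1.88-fold and 1.81-fold lower. Its dim probe sets gave -1.47 and 1.48 with SEs of 0.74 and 0.77, so the mean of all 4 was -0.44 and did not pass (adjusted p = 0.493), while the mean of the bright pair was -0.88. Both bright probe sets lost their call narrowly without _x_at and _s_at sets in the table (adjusted p = 0.0519 and 0.0503). Slc6a13 (GAT2), which carries GABA and taurine, read -0.66, -1.18 and -0.89 against 1.08, 0.79 and 0.66 in its bright probe set 1424338_at. That change was -1.75 (SE 0.21, adjusted p = 0.0198), 3.37-fold lower.

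Slc6a8, the creatine transporter, passed only as a mean of probe sets and is named after its values were seen. The mean read 0.32, 0.12 and 0.48 against -1.04, -1.53 and -1.42, a change of 1.64 (SE 0.20, adjusted p = 0.0141 by limma). Its probe sets did not pass alone: 1448596_at read -2.18, -2.64 and -0.097 in the mock arrays and 1417116_at read 0.099, -0.42 and -2.74. Their mock values had SDs of 1.35 and 1.51, whereas the mean of both had an SD of 0.26. The call was lost with a variance trend (adjusted p = 0.125), on the bright probe set alone (adjusted p = 0.0634) and when gene Slc6a8 was taken by its least variable probe set (adjusted p = 0.118). Of the remaining Slc6 genes, monoamine carriers gave 0 calls in 3 genes and glycine and proline carriers 0 in 3, where 11.4% of all genes passed. The group around Slc6a14 to Slc6a20 gave 0 in 8, with probe sets there ranging from -1.29 to 2.34. Slc6a21, at 2.07 in 1 dim probe set without overlap of the groups, did not pass as a gene (adjusted p = 0.0530 by limma). Nor did Slc6a12, at -1.66, or Slc6a11, at -0.41 and 0.34 in its probe sets.

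The Slc43 carriers were positive in all 5 probe sets and none passed. Slc43a2 (LAT4), a carrier of branched-chain amino acids, had changes of 0.41, 0.63 and 1.63, the last at 0.26, 0.83 and 1.36 against -1.66, -0.26 and -0.54 (adjusted p = 0.105 by limma). Slc43a1 (LAT3) was at 0.63 (adjusted p = 0.132) and Slc43a3, a purine nucleobase carrier, at 0.20. The opposite-strand genes Slc36a1os, Slc6a19os and Slc7a6os ranged from 0.20 to 1.38 in 4 probe sets and did not pass.

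Of 22 measured genes of the amino acid response 2 were higher and 6 lower, or 36.4%, against 11.4% of all genes, with a median change of -0.11. Chac1, which degrades glutathione, read -1.42, -0.73 and -0.89 against 0.92, 0.77 and 0.73, a change of -1.82 (SE 0.22, adjusted p = 0.0143 by limma). Atf4 itself read -0.40, -1.52 and -1.45 against 0.67, 0.49 and 0.84, a change of -1.79 (SE 0.35, adjusted p = 0.0345). Taken by its least variable probe set, gene Atf4 changed by -1.20 and lost its call (adjusted p = 0.0595). Both in Atf4 and in Slc3a2, ASXL1-MT replicate 1 lay nearest to the controls. In Slc7a11 (gene mean -1.53, -1.29 and -1.21), Chac1 and Sesn2 (-0.86, -0.68 and -0.67) that replicate lay farthest from them instead. Sesn2, which inhibits mTORC1, changed by -1.19 (adjusted p = 0.0197). Eif2ak3, the kinase of endoplasmic reticulum stress, changed by -1.47 (adjusted p = 0.0268), but by -0.26 on its bright probe set alone, and it lost its call without _x_at and _s_at sets (adjusted p = 0.0507). Named after their values were seen, Cebpb at -1.16 and Nupr1 at -0.87 fell too, while Ddit3 (-1.94, adjusted p = 0.0763), Atf3 (-3.12, adjusted p = 0.204), Trib3 (-0.20, adjusted p = 0.609) and Ddit4 (0.09, adjusted p = 0.901) did not pass. In Ddit3 ASXL1-MT replicate 1 stood apart toward the controls, at -0.28 against -2.06 in both others. Without it the change was -2.53 (adjusted p = 0.0193 by limma). Eif2ak4, the kinase of amino acid shortage, was at 0.65 without overlap of the groups and did not pass (adjusted p = 0.0563 by limma). Also positive without passing were Gcn1 (0.82), Aldh18a1 (0.65), Shmt2 (0.42), Cebpg (0.39) and Mthfd2 (0.28). Vldlr (-0.92) and Atf5 (-0.68) were negative without passing.

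Of the 3 enzymes of serine synthesis, Phgdh rose by 0.78 and Psat1 by 0.58 (adjusted p = 0.0261 and 0.0438 by limma), and Psph, at 0.22, did not pass (adjusted p = 0.358). Psat1 lost its call under each scaling (adjusted p from 0.0667 to 0.0736) and without _x_at and _s_at sets (adjusted p = 0.0529). Asns, which makes asparagine and is a classical target of the response, had a change of -0.01 (SE 0.19, adjusted p = 0.977). The windows of Slc7a11 and Chac1, which fell, and of Asns, which did not pass, all hold the C/EBP-ATF core. Without each array in turn, Atf4 ran from -2.15 to -1.59 and passed in 1 of 6 fits, and Chac1 from -1.96 to -1.62 and passed in 3 of 6.

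**Figure D4:**
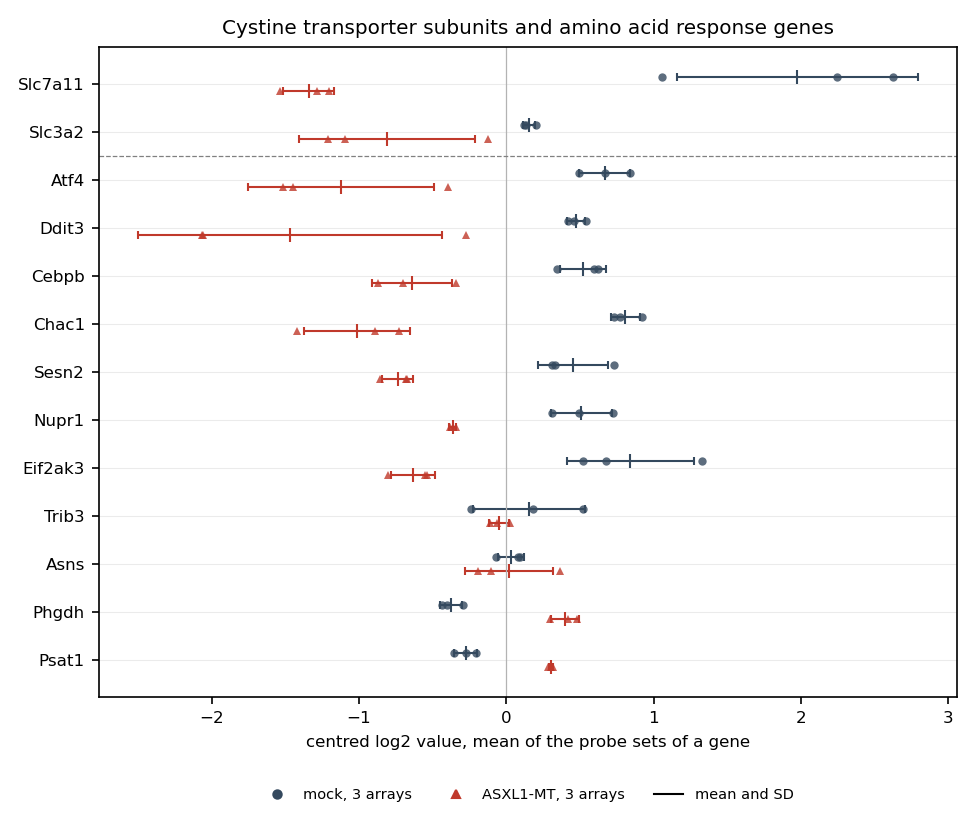
Centred log2 values (horizontal axis), averaged over the probe sets of each gene. Slc7a11 and Slc3a2 lie above the dashed line, and below it are 11 genes selected from the 22 measured in the amino acid response. Not shown are Eif2ak4, Gcn1, Aldh18a1, Shmt2, Cebpg, Mthfd2, Psph and Ddit4, with positive changes, and Atf3, Vldlr and Atf5, with negative ones. None of these passed, and the median change of all 22 was -0.11. Mock arrays are circles, ASXL1-MT arrays are triangles, and bars give mean and SD. Genes from Atf4 to Eif2ak3 lie lower in ASXL1-MT, Trib3 and Asns overlap, and Phgdh and Psat1 lie higher. In Slc3a2, Atf4 and Ddit3, ASXL1-MT replicate 1 stands nearer the controls, whereas in Slc7a11, Chac1 and Sesn2 it lies farthest from them.

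Among 28 measured genes of amino acid sensing by mTORC1, 1 was higher and 1 lower (7.14%, against 11.4% of all genes). Sesn1, a sestrin that inhibits mTORC1, was higher by 2.60-fold (adjusted p = 0.0125 by limma), and Lamtor4, a part of its lysosomal anchor, was lower by 1.65-fold (adjusted p = 0.0362). Of 17 other carriers of amino acids and peptides, 2 were higher and 1 lower (17.6%). Slc15a3, a lysosomal peptide carrier of myeloid cells, was lower by 4.07-fold (adjusted p = 0.00773) and kept its call with every array left out. Slc25a13 and Slc25a12, the mitochondrial aspartate and glutamate carriers, were higher by 2.66-fold and 1.95-fold, though Slc25a12 had a log2 change of 0.18 by its least variable probe set. Of 15 enzymes of glutamine, glutathione and branched-chain metabolism, 1 was higher and 2 lower (20%). A bright probe set was present in 13 of these enzymes, 11 of the 17 carriers and 24 of the 28 sensing genes. Gpt2, mitochondrial alanine transaminase, was higher by 2.14-fold (adjusted p = 0.0421), a call lost under each scaling (adjusted p from 0.0506 to 0.0546) and without _x_at and _s_at sets (adjusted p = 0.20). Got1, cytosolic aspartate transaminase, was lower by 2.68-fold, and glutathione reductase Gsr was lower by 1.80-fold. Gclc and Gclm, which make the glutathione precursor from cysteine, had changes of 0.47 and 0.00 and did not pass.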

How the data were processed

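Per the submitters' processing notes, signals came from MAS5. The authors deposited 1 table of log2 values (the base was inferred) for 6 arrays, centred by probe set, with no scaling, centring or floor stated in the sources used here. Ties between arrays occurred in 425 probe sets and only at the bottom value, which fits a detection floor and sets the sign. Array medians ran from -0.053 to 0.050. The number of arrays limits the precision.

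Groups and replicate numbers came from the titles. Symbols came from the platform annotation (34945 probe sets with 1 symbol, 932 with several, 9160 without one here), and all 121 members matched RefSeq genes of GRCm38.p6 by gene ID. The fit used limma 3.58.1 (lmFit, then eBayes; R 4.3.3) on the 45037 probe sets, with group as the only term and Benjamini-Hochberg adjustment, and was repeated on gene means (18193 genes). The fit and the brightness rule were tested on simulated data, and the rule takes in some dimmer probe sets. Named members were those past the threshold, the smallest p of a family without one, and Slc3a2, Slc7a5, Slc7a11, Slc7a1, Slc1a5, Slc38a1 and Slc38a2. From each other list up to 4 called genes with the largest change were taken. Other members and list genes named in the text were picked after their values were seen. The members and lists were chosen with earlier results of these data known. Alternatives were 3 scalings, a variance trend, a replicate block, each array left out, bright probe sets alone, no _x_at or _s_at probe sets, and 1 probe set per gene. Promoter windows are RefSeq sequences of GRCm38.p6.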

Additional observations from a re-analysis of the deposited data

How the results depend on the processing

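The named members and lists were recomputed under each alternative. The replicate numbers of the titles are not stated to pair the samples, and deviations of same-numbered arrays correlated at -0.049, -0.053 and 0.010 over bright probe sets. With the replicate number as a block, the counts were 0 higher and 0 lower for member probe sets and for member genes, and 0 calls were left among all 45037 probe sets, a loss not particular to the members. With an array left out, the member counts ran from 0 to 2 higher and 0 to 3 lower for probe sets, and from 0 to 3 higher and 0 to 3 lower for genes. Member genes called were 4 higher and 4 lower among bright probe sets alone, 7 higher and 4 lower when each gene was taken by its least variable probe set, and 7 higher and 2 lower with a variance trend, against 5 higher and 2 lower. Family medians with an array left out ran from 0.24 to 0.43 over all members, 0.38 to 0.91 for Slc1a, 0.39 to 0.75 for Slc36a, 0.13 to 0.46 for Slc38a, -1.19 to -0.45 for Slc3a, 0.50 to 0.74 for Slc43a, 0.25 to 0.40 for Slc7a and -0.18 to 0.45 for Slc6a. The Slc6a median turned positive without ASXL1-MT replicate 3 (0.26), without mock replicate 3 (0.45) and by each gene's least variable probe set (0.50). On bright probe sets alone the medians were 0.20 for all members, -0.42 for Slc6a, 0.078 for Slc36a and 0.41 for Slc43a, over fewer genes. Signs turned for Slc38a2 (0.19) and Slc38a3 (-1.88) by the least variable probe set, for Slc7a1 1421533_at without mock replicate 2, where the fits with an array left out ran from -0.094 to 0.58, and for Asns, at 0.052 with that probe set, 0.050 and 0.096 without ASXL1-MT replicates 2 and 3, and 0.010 and 0.017 without mock replicates 1 and 2. The cause was not tested. The alternatives for genes outside the families and for Slc6a8 were chosen after seeing the data. Absolute levels were removed by centring, so no offset could be tried and the only filter on signal was the brightness rule. A missed threshold, above all in a dim probe set, does not show that a member was unchanged.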

Other observations

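With the 17326 bright probe sets fitted alone, 7 of 33 bright members were past limma's threshold as higher and 5 as lower (36.4%, against 39% of all). A probe set whose groups do not overlap counts as bright through its higher group, so these values are a description and support no call that the full table did not make. Besides the 6 of the full table, the higher ones were Slc7a1 1454991_at (0.69, adjusted p = 0.0390), Slc38a1 1415903_at (0.56, adjusted p = 0.0142), Slc38a9 1456338_at (0.82, adjusted p = 0.00978) and Slc38a10 1456241_a_at (0.47, adjusted p = 0.0358). The lower ones were Slc3a2 1425364_a_at (-0.96, adjusted p = 0.0486) and Slc36a2 1436521_at (-0.73, adjusted p = 0.0259). Slc38a10, an amino acid carrier of wide expression, was measured by 7 probe sets, of which 5 were positive, with changes from -0.10 to 2.45. The highest was a dim probe set, 1434617_x_at, in which mock replicate 1 lay at -3.45.

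Of the 15 called member probe sets 6 were bright, and 5 of the 11 genes with a called probe set did not pass as a mean. These were Slc1a3, Slc1a4, Slc38a3, Slc38a9 and Slc6a6. In Slc1a3, Slc38a3, Slc38a9 and Slc6a6 probe sets of the gene differed in sign. The other probe sets of Slc38a9 did not pass, with positive changes of 0.38, 0.59, 0.80, 0.82 and 0.88 and a negative one of -0.19.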
